A study of Sus scrofa with 10 samples.

Results

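Insulin-like growth factor (IGF) genes were followed in the hypothalamus of pigs that diverged in growth and fatness. The members were the gene rows of an expression table named IGF1, IGF2, IGF1R, IGFBP2, IGFBP3, IGFBP5 or GHR. These 7 names held 8 of the table's 25009 rows, since IGF1R had 2. RNA was sequenced from 10 Iberian x Landrace backcross pigs, 5 of high and 5 of low growth and fatness, called high pigs and low pigs below. No treatment is given in the labels, and age and sex were not given in the sources used here. Each group had 1 value per gene row, in FPKM, fragments scaled for transcript length and library size, with a lower and an upper deposited bound. Those bounds stand in parentheses below. Values per animal were not analysed here, so there is no replicate check, no test across animals is possible and the depth of each library is unknown. Groups were compared by whether their intervals overlap and by the size of the ratio.

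Growth hormone from the pituitary acts through the growth hormone receptor, GHR, and drives production of IGF1, chiefly in liver. IGF1 and IGF2 signal through the tyrosine kinase receptor IGF1R. The IGF2 receptor, which also carries mannose-6-phosphate proteins to lysosomes, removes IGF2. The IGF binding proteins hold both ligands and control how much reaches the receptor. IGF2 is an imprinted gene, transcribed mainly from the paternal copy in most tissues. In the adult rodent brain it is made mostly by choroid plexus, meninges and vessels rather than by neurons, and IGFBP2 is also abundant in choroid plexus and meninges.

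Hypothalamic tissue was present in both groups by its own peptides. The 9 rows of 8 hypothalamic peptide genes, AVP, OXT, PMCH, HCRT, TRH, GHRH, POMC and AGRP, all had a mean of at least 1 FPKM, and their summed level was 815 FPKM in high pigs and 622 FPKM in low pigs. Of the 9 rows, 7 had the higher value in high pigs and 2, POMC and AGRP, the lower. POMC is also among the anterior pituitary markers used below. Rows with an estimate in both groups and a mean of at least 1 FPKM numbered 15281 and are called the compared rows. Of these, 67.7% had the lower value in high pigs, and their median difference was -0.10 on the log2(FPKM + 1) scale, high minus low. All differences below use that scale, which understates the change of low genes.

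IGF2 and IGFBP2 were lower in the pigs of high growth and fatness, with intervals that did not overlap. The IGF1 ligand, both receptors and IGFBP3 had overlapping intervals. Of the 8 member rows, 7 were among the compared rows, and the intervals of 2 of the 7 did not overlap, both higher in low pigs. Over all compared rows the intervals did not overlap in 0.458%, in 0.432% with the higher value in low pigs and in 0.0262% with the higher value in high pigs. These were 66 and 4 rows. Median-of-ratios scaling left 48 higher in low pigs and 7 higher in high pigs, and quantile normalization 57 and 6. The FPKM ratio was at least 2 in the same 2 member rows, against 3.76% of compared rows, 2.44% higher in low pigs and 1.32% higher in high pigs. The members were chosen with results of these data known, so the share is a description.

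**Figure D1:**
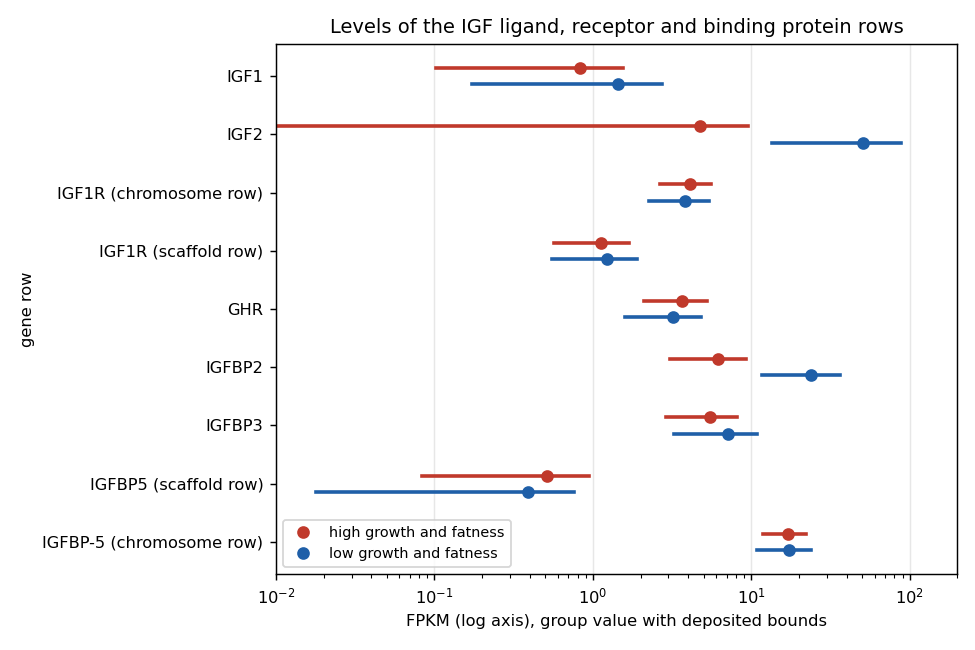
FPKM on a log axis for each member row and for the IGFBP-5 row on chromosome 15, which the names did not select. Points are group values and lines run between the deposited bounds. The lower bound of IGF2 in high pigs is 0 and is drawn to the edge of the axis. IGF2 (4.74 against 50.7 FPKM) and IGFBP2 (6.16 against 24.0 FPKM) are the rows whose lines do not overlap.

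Among the ligands, IGF2 showed the larger difference. Its row stood at 4.74 FPKM (0 to 9.49) in high pigs and at 50.7 FPKM (13.5 to 87.9) in low pigs. The level was thus 10.7-fold higher in low pigs, and the facing bounds of both intervals lay 1.42-fold apart. The log2 difference was -3.17, and 34 of the 15281 compared rows had a difference at or below it. By the low-to-high FPKM ratio itself, IGF2 ranked 74 among the compared rows. In level, IGF2 moved from above 36.8% of compared rows in high pigs to above 90.8% in low pigs.

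The IGF2 intervals were wide for their level. The distance from the value to the upper bound was 100% of the value in high pigs and 73.4% in low pigs. Among the 500 compared rows nearest in level the median distance was 40.9% and 35.4%. IGF2 was wider than 97.0% of those rows in high pigs and 94.2% in low pigs. The separation therefore rests on a pair of imprecise values, and which animals carry the transcript was not analysed here.

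The other ligand, IGF1, the main mediator of growth hormone action, was close to the detection filter. It was at 0.829 FPKM (0.103 to 1.55) in high pigs and 1.45 FPKM (0.172 to 2.73) in low pigs. The intervals overlapped over most of their length. The bounds span a low-to-high ratio from 0.111 to 26.6, so these data set no useful limit on a change of IGF1. In both groups IGF2 had the higher level per transcript length of the 2 ligands, 5.72 times that of IGF1 in high pigs and 34.9 times in low pigs. In high pigs the intervals of IGF1 and IGF2 overlapped.

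**Figure D2:**
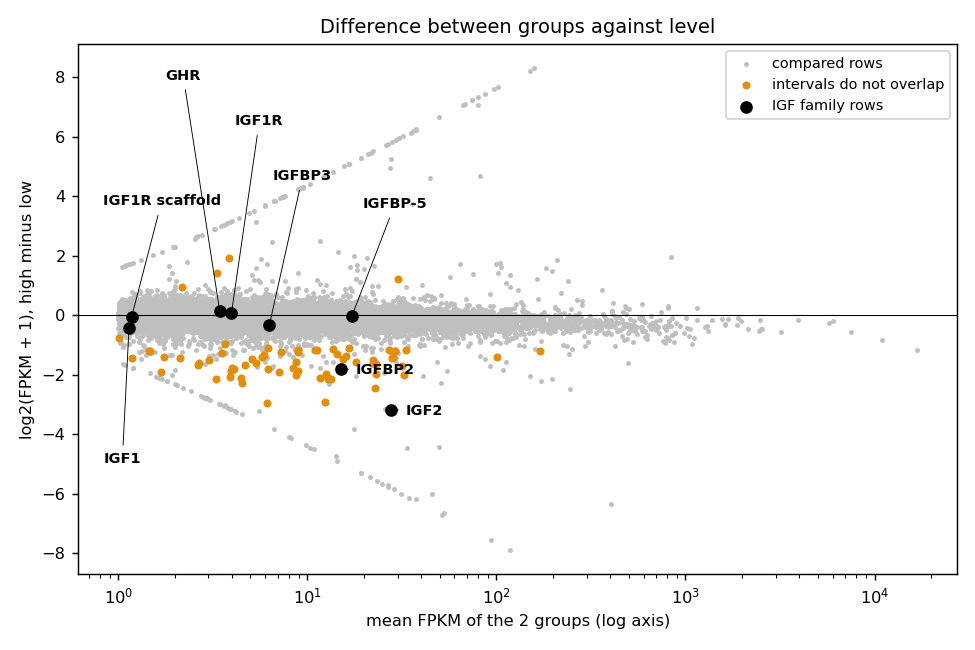
Difference in log2(FPKM + 1), high minus low, against mean FPKM on a log axis for the 15281 compared rows. Orange points are rows whose intervals do not overlap, and black points are the compared IGF family rows with IGFBP-5. IGF2 at -3.17 and IGFBP2 at -1.80 lie among the orange rows, while the other black points lie between -0.42 and 0.16.

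The receptors were at similar levels in both groups. IGF1R on chromosome 1 was at 4.11 FPKM (2.66 to 5.55) in high pigs and 3.83 FPKM (2.26 to 5.40) in low pigs. GHR, which passes the growth hormone signal to JAK2 and STAT5, was at 3.68 FPKM (2.11 to 5.24) and 3.20 FPKM (1.59 to 4.81). Their intervals overlapped almost entirely, and the differences were 0.08 and 0.16. For IGF1R the bounds allow a level up to 2.03-fold higher in low pigs or up to 2.46-fold higher in high pigs. For GHR these limits were 2.27-fold and 3.29-fold. A change within those limits was not detectable from these values.

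A second IGF1R row, on an unplaced scaffold, was at 1.13 FPKM (0.566 to 1.69) in high pigs and 1.22 FPKM (0.555 to 1.89) in low pigs. The chromosome row was 3.64 times as high in high pigs and 3.14 times in low pigs. The rows carry the same name, so reads of the receptor may be split between them and neither level is certain. The scaffold row differed by -0.06, and its sign turned after median-of-ratios scaling, to 0.0016.

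Among the binding proteins, IGFBP2 was the row with separated intervals. IGFBP2, a binding protein that carries IGF2 in cerebrospinal fluid, was at 6.16 FPKM (3.08 to 9.25) in high pigs and 24.0 FPKM (11.6 to 36.3) in low pigs. The level was 3.89-fold higher in low pigs, with a log2 difference of -1.80 and facing bounds 1.26-fold apart. Its intervals were somewhat wide, at 50.1% and 51.5% of the value, against medians of 38.5% and 36.5% in rows of like level. IGFBP3, which forms the main circulating IGF complex, was at 5.52 FPKM (2.88 to 8.16) and 7.09 FPKM (3.24 to 10.9). Its intervals overlapped, and the bounds reach from 2.52-fold higher in high pigs to 3.79-fold higher in low pigs.

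IGFBP5, a binding protein that also attaches to extracellular matrix, had 2 rows under different spellings with very different levels. The row named IGFBP5 lies on a scaffold, was at 0.511 FPKM (0.0831 to 0.940) in high pigs and 0.388 FPKM (0.0179 to 0.757) in low pigs, and was the member row below the mean of 1 FPKM. A row spelled IGFBP-5, whose identifier ENSSSCG00000025924 the reference table names IGFBP5, lies on chromosome 15. It was at 16.9 FPKM (11.8 to 22.1) in high pigs and 17.4 FPKM (10.9 to 23.9) in low pigs. That is 33.1 times the scaffold row in high pigs and 44.9 times in low pigs. The IGFBP-5 row was noticed after its values were seen. It had the highest level among these rows in high pigs, where its interval lay above all others. Its difference was -0.04, and it turned to 0.07 after median-of-ratios scaling and to 0.09 after quantile normalization. The bounds allow a change of up to 2.03-fold in either direction.

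**Figure D3:**
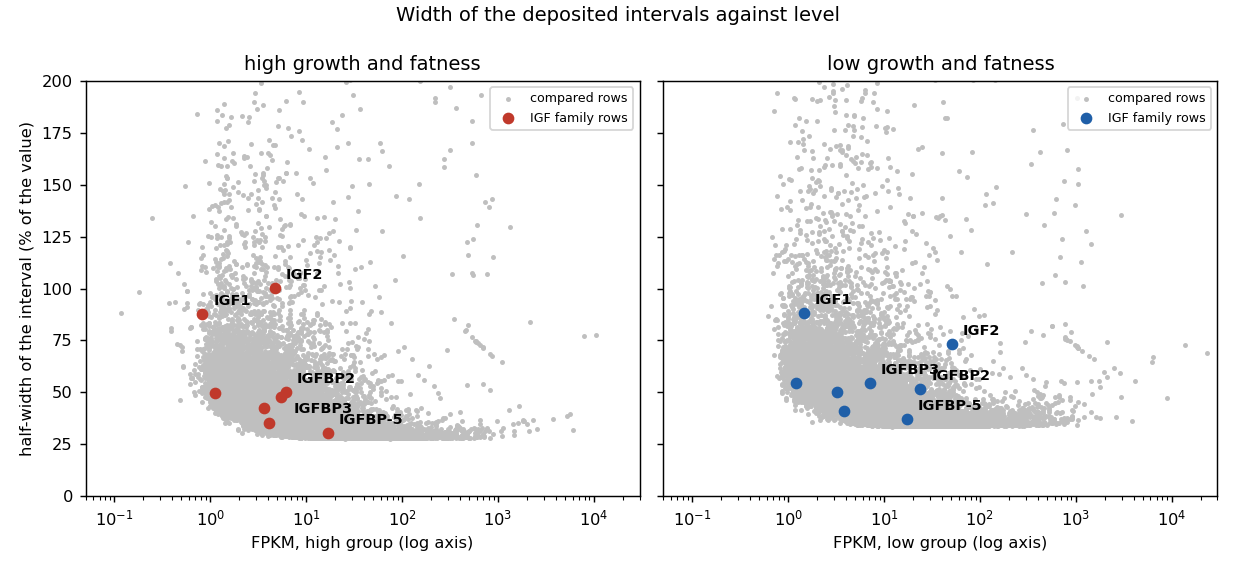
Distance from the value to the upper bound, as a percent of the value, against FPKM on a log axis, with high pigs on the left and low pigs on the right. Grey points are compared rows, and coloured points are IGF family rows with IGFBP-5. Rows above 200%, 406 in high and 423 in low pigs, are not drawn. IGF2, at 100% and 73.4%, lies above most rows of its level, while IGFBP-5 lies at 30.3% and 37.4%.

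The order of levels differed between the groups at the top. In high pigs it ran IGFBP-5, IGFBP2, IGFBP3, IGF2, IGF1R and GHR, then the IGF1R scaffold row, IGF1 and the IGFBP5 scaffold row. Neighbours in that order had overlapping intervals except IGFBP-5 above IGFBP2, and GHR above the IGF1R scaffold row. In low pigs IGF2 and IGFBP2 stood first, followed by IGFBP-5, IGFBP3, IGF1R and GHR, and every neighbouring pair overlapped. IGF2 was 1.15 times the level of the chromosome row of IGF1R in high pigs and 13.2 times in low pigs.

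The 2 rows with separated intervals both lie on unplaced scaffolds of build Sscrofa10.2, as do 4 of the 8 member rows. The scaffold row of IGFBP5, 1 of these 4, is below the filter. It is thus outside the compared rows, of which 10.1% lie on scaffolds. IGF2 (ENSSSCG00000024883) covers bases 1 to 2416 of scaffold GL896425.1 and is the 1 row there, so the gene model may be cut by the scaffold's edge. IGFBP2 (ENSSSCG00000026123, bases 46034 to 68435) and IGFBP5 (ENSSSCG00000016178, bases 22943 to 34814) are the 2 rows of scaffold JH118558.1. The IGF1R scaffold row (ENSSSCG00000030560) lies at bases 18219 to 53755 of JH118704.1. The placed rows are IGF1 (ENSSSCG00000000857, chromosome 5, 85700479 to 85773711), IGF1R (ENSSSCG00000004812, chromosome 1, 153523942 to 153853776), IGFBP3 (ENSSSCG00000016729, chromosome 18, 54851504 to 54856012) and GHR (ENSSSCG00000016866, chromosome 16, 28693711 to 28855126). On placed chromosomes alone, 0 of 4 compared member rows had separated intervals.

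Neighbours of the members had values in both directions, and their relation to the members was not tested. IGFBP2 and IGFBP5 are also neighbours in the RefSeq annotation of assembly Sscrofa11.1. IGFBP2 was 3.89-fold higher in low pigs, whereas the 2 rows of IGFBP5 differed by 0.12 and -0.04. RPL37A, a ribosomal protein gene on the other side of IGFBP2 in that annotation, had a row at 358 FPKM in high pigs and 519 FPKM in low pigs, which the file places on chromosome 14. The insulin gene INS, which follows IGF2 in that annotation, was listed at 0 in both groups. IGFBP1, which lies beside IGFBP3 on chromosome 18 (54861845 to 54866804), was at 0.156 FPKM (0 to 0.340) and 0.0140 FPKM (0 to 0.0483). The row on the other side of IGFBP3, the unnamed ENSSSCG00000019842, was at 151 FPKM (0 to 378) and 300 FPKM (0 to 708).

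The binding proteins outside the members had overlapping intervals. Of 5 rows found, 4 were compared, 3 had the lower value in high pigs, and 0 had separated intervals. IGFBP6, which prefers IGF2 over IGF1, came nearest, at 3.57 FPKM (1.78 to 5.3557) in high pigs and 10.7 FPKM (5.3542 to 16.0) in low pigs. Its ratio was 3.0 and the bounds met. IGFBP7, a related protein of vessels with weak affinity for IGFs, had the highest level of the family, at 68.3 FPKM (36.2 to 100) and 97.6 FPKM (46.4 to 149). IGFBP4 was at 4.09 FPKM (2.43 to 5.75) and 6.15 FPKM (3.45 to 8.86). Summed over the 8 rows of IGFBP1 to IGFBP7, with both rows of IGFBP5, the level was 105 FPKM in high pigs and 163 FPKM in low pigs. IGFBP2 made up 5.86% of that sum in high pigs and 14.7% in low pigs.

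Proteases that cut binding proteins, and their inhibitors, had the lower value in high pigs in each of 6 compared rows. Their median was -0.44, where all compared rows had 67.7% lower and a median of -0.10. In 1 of the 6 the intervals did not overlap. That was MMP2, a matrix metalloprotease, at 8.24 FPKM (5.51 to 11.0) and 19.2 FPKM (11.8 to 26.6), and after either scaling its intervals overlapped. STC1, an inhibitor of the pappalysins, differed by -0.02, and in this list 1 row turned sign under either scaling. PAPPA2, a pappalysin that cuts IGFBP3 and IGFBP5, was below the filter at 0.198 and 0.190 FPKM. In all, 6 of the list's 12 rows were below the filter. PAPPA and ADAM9 were on the list but not found by name, so they were not compared.

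Other receptors and hormones of the axis had the higher value in high pigs in 8 of 9 compared rows. After either scaling 9 of 9 did. Their median was 0.40, and 0 rows had separated intervals. GHRH and the IGF2 receptor gave 2 rows each, so the 9 rows stand for fewer genes. Both GHRH rows are also among the hypothalamic peptide rows given above. The growth hormone gene GH1 and SSTR3, SSTR4 and SSTR5 were on the list but not found by name. A further 4 of its 13 rows were below the filter. INSR, the insulin receptor, was at 4.84 FPKM (2.85 to 6.83) and 3.43 FPKM (1.72 to 5.13). The IGF2 receptor, named M6P/IGF2R in the table, had 2 rows on chromosome 1, at 3.52 against 3.55 FPKM and at 3.61 against 2.64 FPKM, with overlapping intervals in both. PRLR, the prolactin receptor, had a ratio of at least 2, at 1.95 FPKM (0.969 to 2.94) and 0.912 FPKM (0.295 to 1.53). Hormones that control growth hormone release include GHRH and SST. GHRH was at 7.15 against 5.19 FPKM in its scaffold row and 6.96 against 5.09 FPKM on chromosome 17. SST was at 156 against 114 FPKM.

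The signalling genes that were found below the receptors were near the overall shift by list median. Of 12 compared rows for growth hormone receptor signalling, 8 had the lower value in high pigs, with a median of -0.09, and 0 had separated intervals. SOCS3, an inhibitor of JAK2 signalling, was at 1.12 FPKM (0.183 to 2.06) and 3.17 FPKM (0.777 to 5.57), a ratio of 2.83. JAK2 was at 5.26 against 3.96 FPKM. Of 28 compared rows for IGF1 receptor signalling, 18 had the lower value in high pigs, with a median of -0.09, and 0 had separated intervals. AKT1, FOXO1, IRS1, IRS2, IRS4, MTOR and PDPK1 were on that list but not found by name, so they were not compared. The largest differences there were those of the adaptor SHC1, at 5.59 against 8.03 FPKM, and of a row of PIK3R1, at 10.7 against 13.9 FPKM. PIK3R1 is a regulatory subunit of phosphatidylinositol 3-kinase. A second row of it was at 12.3 against 15.6 FPKM. The median of growth hormone receptor signalling turned to 0.0028 after median-of-ratios scaling and to 0.02 after quantile normalization. That of IGF1 receptor signalling turned to 0.02 after the first and stayed at -0.0015 after the second.

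**Figure D4:**
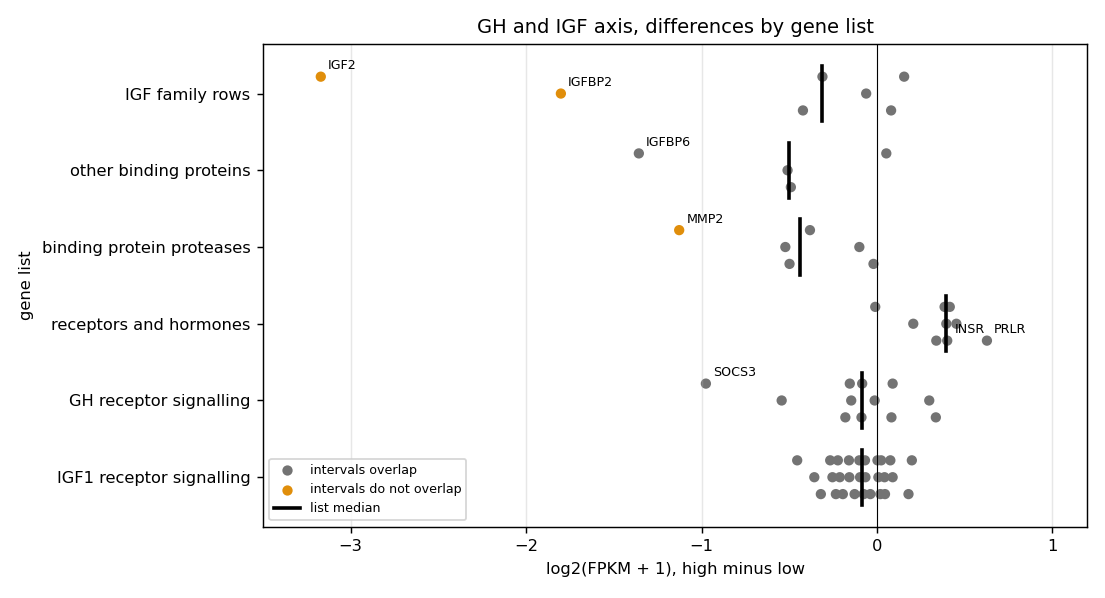
Difference in log2(FPKM + 1), high minus low, for compared rows of the IGF family and of 5 lists of the growth hormone and IGF axis. Points are gene rows, orange where the intervals do not overlap, and vertical bars are list medians. IGF2, IGFBP2 and MMP2 are orange. In the receptor and hormone list 8 of 9 rows lie to the right of 0, with a median of 0.40.

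Across these lists, the IGF2 messenger RNA binding proteins and the imprinted growth genes, 72 rows were compared. Of these, 42 had the lower value in high pigs, and 1 had separated intervals. Their median was -0.06, against -0.10 over all compared rows.

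Markers of meninges, vessel walls and choroid plexus mostly had lower values in high pigs, and so did most compared markers of other tissues and cells. The list of fibroblasts, mural cells and meninges held 15 compared rows of 12 genes. All 15 had the lower value in high pigs, or 14 after median-of-ratios scaling, with a median of -1.29. Over all compared rows, 67.7% had the lower value in high pigs and 0.458% had separated intervals. The intervals of 9 of the 15 did not overlap, or of 5 after either scaling. Their summed level was 103 FPKM in high pigs and 291 FPKM in low pigs, a ratio of 2.83, and none was at 0. COL1A1, a chain of fibrillar collagen, was at 12.2 FPKM (4.44 to 20.0) and 52.6 FPKM (20.9 to 84.4) in its row on chromosome 12, and COL1A2 at 15.2 against 41.4 FPKM in its higher row. The choroid plexus markers had the lower value in high pigs in 6 of 8 compared rows, with a median of -0.53 and 1 row with separated intervals. The sum over all 10 rows of that list, with those below the filter, was 326 and 494 FPKM. That is a ratio of 1.51, and none was at 0. TTR, the transthyretin of choroid plexus, was at 268 against 407 FPKM and the folate receptor FOLR1 at 39.5 against 55.3 FPKM. The row with separated intervals was SLC13A4, a sulfate transporter, at 3.29 against 13.6 FPKM. The other direction was shown by KL, at 7.39 against 7.12 FPKM, and by PRLR, the prolactin receptor given above, which is also on this list, at 1.95 against 0.912 FPKM.

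Markers of other tissues and cells differed between the groups by different amounts. Against 67.7% of all compared rows lower in high pigs and 0.458% separated, blood markers had the lower value in 4 of 4. Of these, 2 were separated, or 1 after quantile normalization. All 8 rows of that list, with those below the filter, summed to 161 and 393 FPKM. Anterior pituitary markers had the lower value in high pigs in 6 of 6, or 5 after either scaling, with 0 separated. All 8 rows of that list summed to 428 and 791 FPKM. Most of that sum was PRL, at 279 FPKM (174 to 384) and 570 FPKM (102 to 1039). The median was -0.74 over 10 oligodendrocyte rows, -0.48 over 11 microglial rows, -0.27 over 8 endothelial rows, -0.18 over 7 ependymal and tanycyte rows, -0.17 over 7 astrocyte rows and -0.09 over 8 neuronal rows, with 0 separated in each. Each of the 10 oligodendrocyte, 11 microglial and 8 endothelial rows had the lower value in high pigs, also after either scaling. So did 6 of 7 astrocyte, 4 of 7 ependymal and tanycyte and 5 of 8 neuronal rows as deposited. Among all these markers the astrocyte gene GFAP was listed at 0 in both groups, in a row without an estimate. The neuronal median turned to 0.02 after median-of-ratios scaling and 0.12 after quantile normalization. The part of these tissues in the IGF2 and IGFBP2 values was not tested. In bulk tissue, fewer cells of a type and less RNA per cell cannot be told apart.

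**Figure D5:**
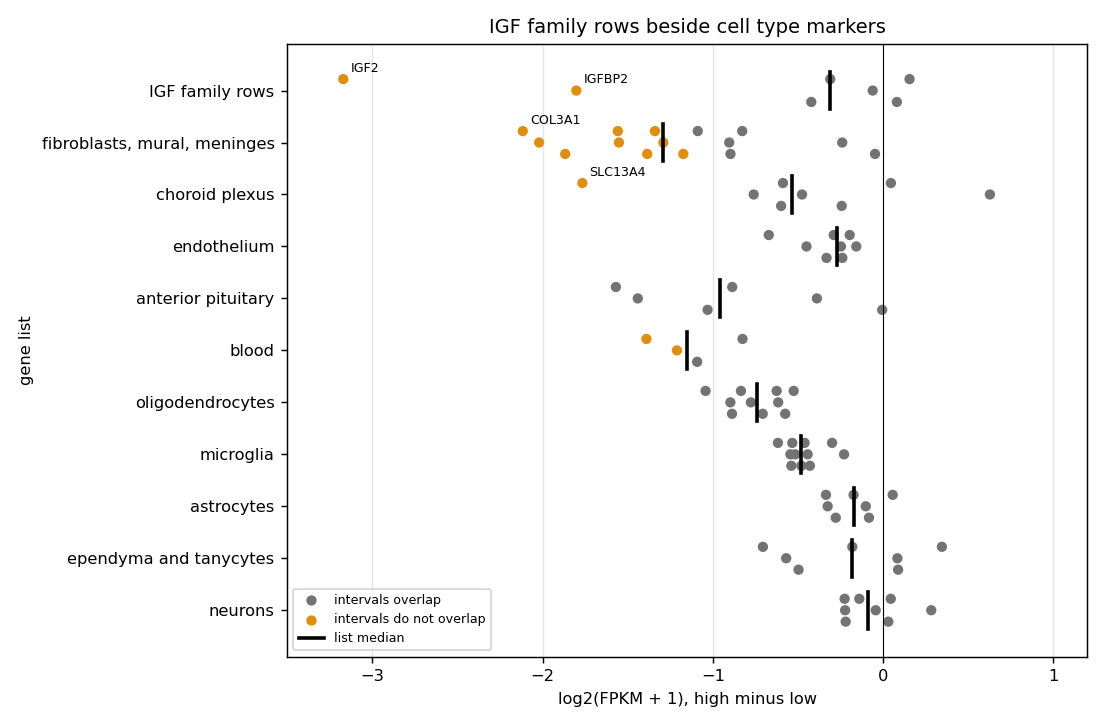
Difference in log2(FPKM + 1), high minus low, for compared rows of the IGF family and of 10 lists of cell type and tissue markers. Points are gene rows, orange where the intervals do not overlap, and vertical bars are list medians. IGF2 lies below every marker row shown, and IGFBP2, at -1.80, lies within the range of the fibroblast, mural and meningeal rows, -2.12 to -0.05.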

How the data were processed

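Per the labels, total RNA was extracted with a RiboPure kit and paired-end libraries of 300 bp fragments were sequenced on an Illumina HiSeq, 3 per lane. Lanes of single animals were not given in the sources used here. Cufflinks 2.0.2, TopHat2 2.0.5 with Bowtie2, Trim Galore, FastQC and CASAVA are listed without roles, with build Sscrofa10.2, per the submitters' processing notes. The authors deposited FPKM with bounds and a status, 1 value per group, per the file headers. The level of the bounds and how animals were combined were not given in the sources used here.

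Rows with status OK in both groups (24951) were compared at a mean of at least 1 FPKM, with pseudocount 1, in Python 3.11.15 with pandas 2.3.3. No p-value was computed. Starts were counted from 1. Alternatives were 2 scalings, other filters and pseudocounts, a ratio rule and placed rows. Member identifiers matched the reference names table in 3 of 8 rows, those of IGF1, GHR and the scaffold row of IGF1R. Other names, with those of IGF2, IGFBP2 and the chromosome row of IGF1R, are the file's.

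The members and the 7 pathway and 10 marker lists were chosen with earlier results of these data known. The naming rule took every member row, pathway genes with separated intervals or a ratio of at least 2 (otherwise the 2 largest differences), the 2 highest markers per list and neighbouring rows. Only the first 2 marker lists are named by gene, apart from PRL, POMC and GFAP. IGFBP4, IGFBP7, STC1, PAPPA2, INSR, the IGF2 receptor, GHRH, SST, JAK2, SLC13A4, KL and the hypothalamic peptides lie outside it. They were named for their roles after values were seen. RPL37A and INS, neighbours in the RefSeq annotation, also lie outside it.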

Additional observations from a re-analysis of the deposited data

How the results depend on the processing

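IGF2 and IGFBP2 kept their direction and separated intervals under both scalings, without a filter and with a filter at 5 FPKM, and their direction at pseudocounts of 0.1 and 0.5. Their differences ranged from -3.39 to -3.05 and from -1.94 to -1.69. On placed chromosomes the 2 members with separated intervals became 0, because both rows lie on scaffolds. The 70 separated rows became 55 after median-of-ratios scaling and 63 after quantile normalization. By a ratio of at least 2, the 70 separated rows became 575, the 1 pathway row 4 and the 12 marker rows 23. The 1 pathway row, MMP2, became 0 after either scaling. The 12 marker rows became 7 after quantile normalization; the cause was not tested. Of 48 member differences under 6 alternatives, IGFBP-5 included, 3 had another sign, in 2 rows with overlapping intervals. Both scalings moved the median of compared rows from -0.10 to about 0. No paired analysis was possible because each group has a single deposited value, and leaving out animals could not be run for the same reason.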

Other observations

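The other imprinted growth genes that were found did not share the size of the IGF2 difference. CDKN1C, H19, MEG3 and PEG3 were not found by name, so they were not compared. Of 13 compared rows of 11 such genes, 6 had the lower value in high pigs, 7 had the higher value, and 0 had separated intervals, with differences from -0.40 to 0.51. After either scaling 3 of the 13 had the lower value. DLK1, a membrane-bound inhibitor of adipocyte differentiation, had 2 rows, at 15.7 FPKM (9.33 to 22.2) against 10.8 FPKM (4.87 to 16.7) and at 22.6 FPKM (13.9 to 31.3) against 16.2 FPKM (7.68 to 24.7). NNAT, neuronatin, was at 500 FPKM (344 to 656) in high pigs and 659 FPKM (360 to 959) in low pigs. The IGF2 messenger RNA binding proteins were below the filter in each of 4 rows, and the highest, IGF2BP2, was at 0.874 against 1.11 FPKM.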
